A study of Homo sapiens with 9 samples.

Results

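The mitosis and spindle genes described here are 44 human genes chosen by symbol, whose products drive entry into mitosis, build the spindle, hold and part the chromosomes and divide the cell. All 44 were found among the 29740 genes of the counts table, and all 44 were among the 14740 genes that passed the expression filter. The RNA came from the cell line HMEC-1, human microvascular endothelial cells of the skin that were immortalised with the SV40 large T antigen, a viral protein that binds the RB family of proteins and p53. Cells exposed to 50 µM trimethylamine N-oxide (TMAO), a gut microbiota-derived metabolite, for 24H or 48H were compared with untreated cells (CTRL), and each of the 3 groups had 3 libraries. The labels name no other agent or genetic change in any group, and the treated cells were kept in serum-starved medium during exposure. The controls were pooled over the time-points, so the effect of TMAO and that of time in culture cannot be told apart at either time-point. The labels number the libraries of a group but do not say whether they came from separate cultures, so the p-values measure only the spread between these libraries. The question put to the 44 genes was whether their RNA levels changed with TMAO at 24H and at 48H.

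Mitosis begins when CDK1 (cyclin-dependent kinase 1) binds cyclin B, and the complex is switched on by CDC25 phosphatases. The kinesin motors and microtubule-binding proteins then build the spindle, the kinetochore proteins attach chromosomes to it, and the checkpoint kinases and their partners delay anaphase until every chromosome is attached. The anaphase-promoting complex with CDC20 marks cyclin B and securin for destruction, and the cell divides. The genes for these proteins are transcribed together in G2 and mitosis and are kept low in resting cells by the DREAM complex, which acts through the CHR promoter element, while NF-Y binds CCAAT boxes in the same promoters. In bulk RNA a larger share of cells in G2 or mitosis and more RNA per such cell cannot be told apart.

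The promoters were examined because shared promoter letters are a feature that the choice of genes did not use. Windows from 250 bases before to 50 bases after the transcription start were available for 38 of the 44 genes (RefSeq, GRCh38.p14); AURKA, BUB3, TTK, TPX2, UBE2C and BIRC5 were not matched. CCAAT or its reverse complement ATTGG was present in 30 of the 38 windows (78.9%), against 34.6% of all 35116 windows of this length. The listed genes were each counted by their first window only. The share of all windows counts every window, whether or not its gene was expressed here. TTTGAA, the usual CHR letters, or its reverse complement TTCAAA was present in 27 windows (71.1%), against 15.2% of all windows. Both were present in 23 windows (60.5%), against 5.90% of all windows, and 19 windows (50.0%) held at least 2 CCAAT boxes, against 10.8% of all windows. Among 25 matched S phase genes, CCAAT was present in 68.0% of windows and TTTGAA in 1 window. The median position of the first base was -73 for the 63 CCAAT matches and -27 for the 38 TTTGAA matches, counted from the start on the gene's strand. These matches are a description of letters, not of bound factors. The last 120 bases before the start are printed for 6 genes. They were chosen to show CCAAT with TTTGAA (CCNB2, PLK1 and KIF11), CCAAT without TTTGAA (CCNB1) and TTTGAA without CCAAT (ANLN). KIF20B was added as the gene with the largest change at 48H. Capitals mark the letters CCAAT and TTTGAA, read on either strand, and other forms of the CHR element are not marked.
CCNB2: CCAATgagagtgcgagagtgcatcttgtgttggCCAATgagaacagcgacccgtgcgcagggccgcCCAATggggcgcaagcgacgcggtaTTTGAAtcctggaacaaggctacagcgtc
PLK1: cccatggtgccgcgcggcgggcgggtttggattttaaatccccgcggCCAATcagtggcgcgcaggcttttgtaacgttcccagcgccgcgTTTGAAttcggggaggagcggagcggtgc
KIF11: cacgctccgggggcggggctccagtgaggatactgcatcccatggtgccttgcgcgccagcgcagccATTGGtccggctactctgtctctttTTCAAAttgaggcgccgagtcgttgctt
CCNB1: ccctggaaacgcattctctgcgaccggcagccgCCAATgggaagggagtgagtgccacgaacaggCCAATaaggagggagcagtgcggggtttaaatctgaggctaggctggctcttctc
ANLN: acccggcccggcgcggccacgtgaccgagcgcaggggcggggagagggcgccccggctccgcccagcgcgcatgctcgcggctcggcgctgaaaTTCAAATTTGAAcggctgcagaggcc
KIF20B: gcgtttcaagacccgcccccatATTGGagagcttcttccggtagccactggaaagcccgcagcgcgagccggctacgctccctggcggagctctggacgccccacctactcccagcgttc
These stretches lie at chr15:59105026-59105145 (plus strand), chr16:23678769-23678888 (plus strand), chr10:92593010-92593129 (plus strand), chr5:69167030-69167149 (plus strand), chr7:36389742-36389861 (plus strand) and chr10:89701470-89701589 (plus strand). KIF20B had another CCAAT box farther upstream, and its TTTGAA matches lay just after the start. In the printed stretch of ANLN the letters TTCAAATTTGAA are 2 adjoining matches on opposite strands.

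The deposited counts totalled 25205753 to 36927364 per library, and the 44 genes took 0.640% to 0.995% of them. In the library TMAO 24H 1, 6 ribosomal RNA genes took 31.5% of counts, against 1.64% to 7.46% in the other 8 libraries. The biological coefficient of variation was 0.0744. Of 10 endothelial markers, 9 were above 10 CPM (counts scaled by TMM to a common library size) in every library, and CLDN5 was below that. The summed endothelial markers were at 2730 to 3040 CPM in CTRL and 2420 to 2630 CPM in TMAO 48H, where 7 of 10 fell. Of 5 fibroblast markers, COL1A1 and COL1A2 were expressed and fell at 48H, the list summing to 884 to 1030 CPM in CTRL and 544 to 597 CPM in TMAO 48H. The fibroblast markers DCN and LUM and the leukocyte markers PTPRC and CD3E were at or near 0 in every library. Summed leukocyte markers were at 19.4 to 23.4 CPM over all libraries. Summed smooth muscle markers were at 5.44 to 6.42 CPM in CTRL, 5.67 to 6.92 CPM in TMAO 24H and 7.998 to 9.61 CPM in TMAO 48H, where ACTA2 rose 1.668-fold (adjusted p = 0.00194, edgeR). The 4 epithelial markers summed to 8.74 CPM in the library TMAO 48H 3 and to 55.6 to 100.2 CPM in the other 8, so this library stood apart. Results at 48H are therefore also given without it, and those at 24H without TMAO 24H 1. The part of these features in the results below was not tested otherwise.

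All 44 genes were well expressed in every group. The median level over the 9 libraries was 48.9 CPM per kb of transcript for the 44 genes, against 7.64 for the 13843 tested genes with a known length. Each of the 44 was above that median, and 29 were in the highest 10% of tested genes. TOP2A, the topoisomerase that untangles sister chromatids, was the most abundant at 145.9 CPM per kb. CCNB1, which encodes cyclin B1, followed at 121.2 CPM per kb, and NUSAP1, a protein that bundles spindle microtubules, was at 112.6 CPM per kb. The lowest was CDC25C, a phosphatase that activates CDK1, at 13.73 CPM per kb, which placed it higher than 65.9% of tested genes. Neighbours in this order were often close: CCNA2 was at 74.67 and KIF20A at 74.66 CPM per kb. Among the kinesins the order ran from KIF20A down to KIF18A at 14.88 CPM per kb. Levels were set against the longest annotated transcript, since the isoform used in these cells is not known.

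**Figure D1:**
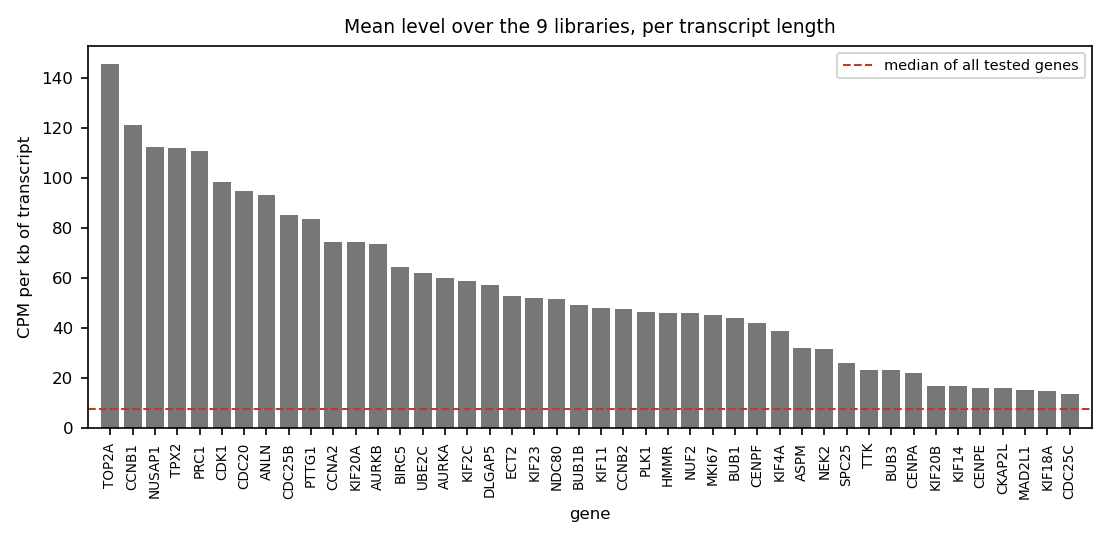
Mean level of each of the 44 genes over the 9 libraries, in CPM per kb of the longest annotated transcript (bars), with the median of all tested genes (7.64, dashed line). All bars stand above the line, from 145.9 for TOP2A to 13.73 for CDC25C.

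The spread between libraries of a group was small. The median within-group standard deviation was 0.0528 on the log2 scale for the 44 genes and 0.0869 for all tested genes. The 44 genes had a higher level (median 170.2 CPM, against 24.52 CPM), and its part in their small spread was not tested. The small spread was not particular to them, with medians of 0.0517 for 28 S phase genes and 0.0454 for 19 condensin and cohesin genes. ANLN varied least (0.0187) and MKI67, whose product Ki-67 coats mitotic chromosomes and is the common proliferation marker, varied most (0.159). MKI67 was at 631.6, 578.4 and 510.6 CPM in CTRL, 550.6, 567.2 and 567.3 CPM in TMAO 24H, and 484.6, 643.2 and 628.8 CPM in TMAO 48H. The groups overlapped, and the libraries of TMAO 48H held both the lowest and the highest value. MAD2L1, a checkpoint protein, had the next largest spread (0.139). Within groups the 44 genes varied together only weakly. The mean pairwise correlation of deviations from the group mean was 0.0989 for them, 0.155 for 28 S phase genes, 0.253 for 19 condensin and cohesin genes and 0.00183 for all tested genes. These correlations rest on 9 libraries and share each library's depth and base composition.

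At 24H none of the 44 genes passed the test. No gene passed an adjusted p of 0.05 in either direction by edgeR, where 0.0950% of all tested genes did, and none passed by DESeq2. With no adjustment, p values under 0.05 went to 1 higher and 1 lower gene, and to 2.77% and 4.47% of all tested genes. The 44 log2 fold changes ran from -0.17 to 0.10 with a median of 0.022, against -0.00042 over all tested genes, and 27 were positive and 17 negative. Over all tested genes 7343 were positive and 7397 negative. The 95% interval lay within a 1.4-fold change in either direction for 44 of the 44 genes, and for 76.4% of all tested genes. It also did so for all 28 S phase genes and all 19 condensin and cohesin genes. Within 1.2-fold it lay for 43 of them, and for 57.4% of all tested genes. The CTRL and TMAO 24H libraries did not overlap for 7 of the 44 genes, all higher at 24H. Of all 14740 tested genes, 992 were higher and 1108 lower without overlap, 14.2% in either direction. Without TMAO 24H 1 the count of genes called stayed at 0 and the median was 0.035.

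The gene with the smallest unadjusted p at 24H was CCNA2, which encodes cyclin A2, the CDK partner of S phase and early mitosis. It was at 196.6, 193.6 and 202.7 CPM in CTRL and 209.0, 218.8 and 209.4 CPM in TMAO 24H. Each treated library was above each control, with a log2 difference of 0.10 ± 0.039 (SE) and an adjusted p of 0.595 by edgeR. CENPA, the histone H3 variant of centromeres, was at 32.32, 34.73 and 34.58 CPM in CTRL, 26.3, 31.58 and 32.52 CPM in TMAO 24H and 33.79, 31.15 and 29.81 CPM in TMAO 48H. Its lowest value was in the library TMAO 24H 1 and the groups overlapped. The log2 difference at 24H was -0.17 ± 0.077 (SE), with an adjusted p of 0.683 by edgeR, and it was -0.079 without TMAO 24H 1. CKAP2L, a spindle protein of neural and other dividing cells, had the next smallest unadjusted p, with a log2 difference of 0.10 ± 0.058 (SE) and an adjusted p of 0.780 by edgeR, and 0.052 without CTRL 3.

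At 48H, 6 of the 44 genes rose, all by less than 1.2-fold, and none fell. The 6 were the kinesins KIF20B and KIF11, the spindle proteins CKAP2L and DLGAP5, cyclin A2 (CCNA2) and the cytokinesis scaffold ANLN. The share called higher was 5.14% and the share called lower 5.29% over all tested genes, while 265 of them (1.80%) were called and changed by 1.4-fold or more, as none of the 44 did. The median log2 fold change of the 44 was 0.086, against 0.0040 for all tested genes, with 37 positive and 7 negative values. Over all tested genes 7515 values were positive and 7225 negative. At an unadjusted p under 0.05 there were 16 higher and none lower (13.2% and 12.6% of all tested genes), and DESeq2 called 8 higher and none lower (5.06% and 6.23% of all tested genes). The interval of the difference lay within 1.4-fold for 44 of 44 genes (71.5% of all tested genes) and within 1.2-fold for 39 (45.5% of all tested genes). Within 1.4-fold it also lay for all 28 S phase genes and all 19 condensin and cohesin genes. The libraries of TMAO 48H lay above those of CTRL without overlap for 17 genes and below for 1, against 14.7% and 13.0% of all tested genes. The genes called changed when 1 library was left out. The count was 5 without TMAO 48H 3 (CCNA2, KIF11, KIF20B, DLGAP5 and ECT2, with a median of 0.098 over the 44). In that fit 686 of all 14740 tested genes were called higher and 909 lower. The count was 1 without TMAO 48H 2, 1 without CTRL 2, and 3 without either CTRL 1 or CTRL 3. For these fits no count over all tested genes is given, so their counts cannot be read as particular to the 44. Such fits had fewer libraries, and the part of this in the counts was not tested.

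**Figure D2:**
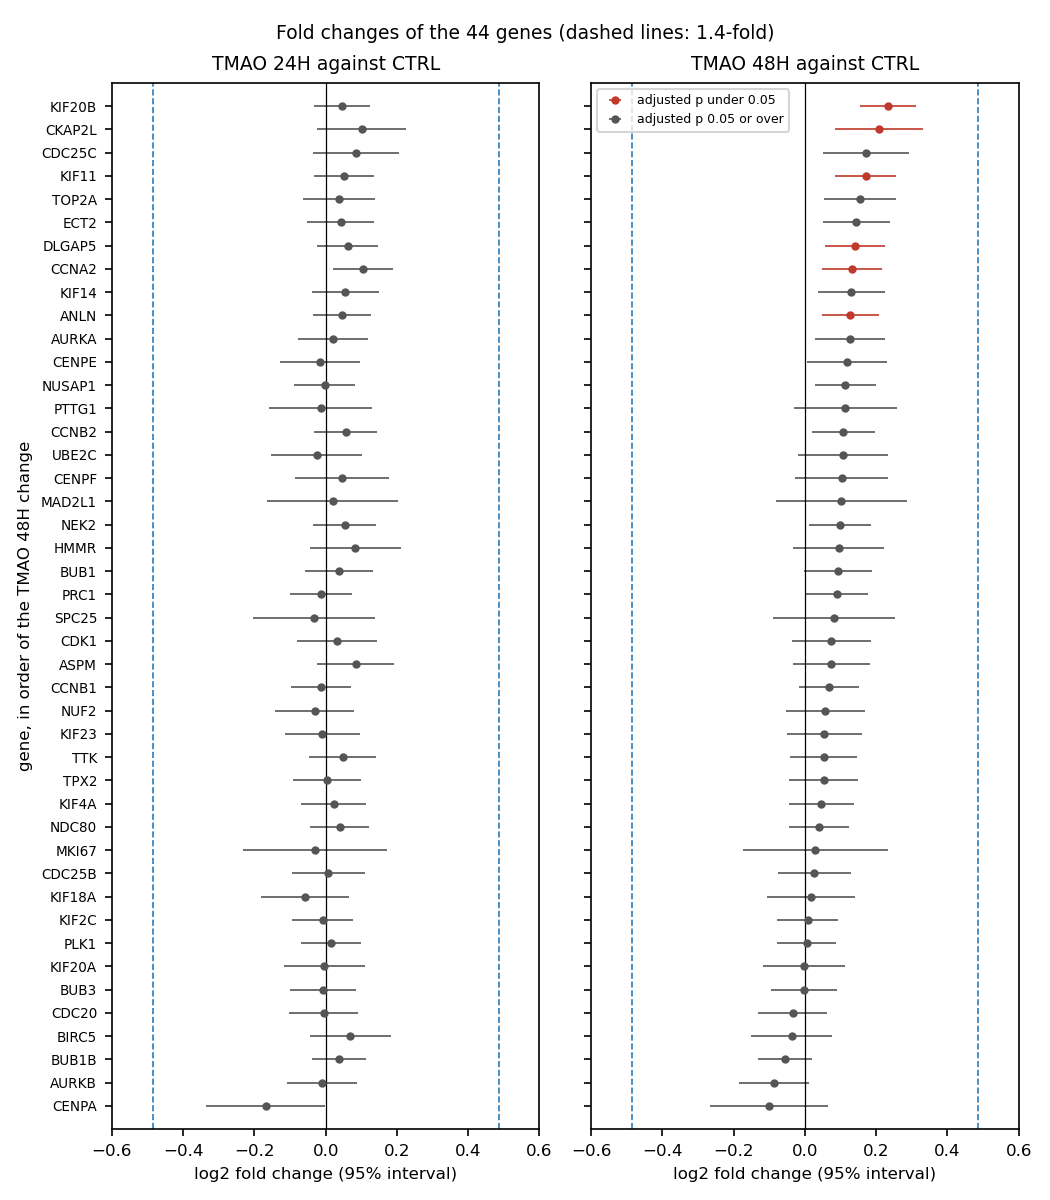
Log2 fold change of each of the 44 genes in TMAO 24H (left) and TMAO 48H (right) against CTRL, with 95% intervals from edgeR (points and lines), in the order of the 48H change. The 6 genes in red passed an adjusted p of 0.05, all at 48H, and no interval reached the dashed 1.4-fold lines.

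KIF20B is a kinesin of the late spindle and the midbody and had the largest change. It was at 100.5, 104.2 and 100.7 CPM in CTRL, 106.6, 105.0 and 104.0 CPM in TMAO 24H, and 119.4, 120.8 and 118.6 CPM in TMAO 48H. The 48H libraries lay above all others, while CTRL and TMAO 24H overlapped. The log2 fold change at 48H was 0.23 ± 0.036 (SE, 1.175-fold, adjusted p = 0.00169, edgeR), and it stayed past the threshold in each of the 6 fits that left out 1 library (adjusted p 0.00312 to 0.0121).

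KIF11, the motor that pushes the spindle poles apart, was at 228.6, 222.3 and 217.1 CPM in CTRL, 227.0, 235.4 and 229.9 CPM in TMAO 24H, and 248.9, 259.3 and 243.8 CPM in TMAO 48H. The 48H libraries again lay above the rest, with a log2 fold change of 0.17 ± 0.039 (SE, adjusted p = 0.0156, edgeR). It lost the call in 2 of the 6 fits that left out 1 library, with a highest adjusted p of 0.0784. The other kinesins moved less. KIF14, which acts in cytokinesis, had a log2 difference of 0.13 and an adjusted p of 0.0745 (edgeR), while KIF23, KIF20A, KIF2C, KIF4A and KIF18A had differences between -0.0020 and 0.055.

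CKAP2L was at 71.75, 68.01 and 62.5 CPM in CTRL, 72.3, 73.15 and 71.46 CPM in TMAO 24H, and 73.06, 83.65 and 76.91 CPM in TMAO 48H. The lowest 48H library was only just above the highest control, and the log2 fold change was 0.21 ± 0.058 (SE, adjusted p = 0.0374, edgeR). It lost the call in 4 of 6 fits that left out 1 library, with a highest adjusted p of 0.163. DLGAP5, which stabilises spindle fibres near chromosomes, was at 163.1, 167.2 and 158.7 CPM in CTRL, 169.1, 174.4 and 166.9 CPM in TMAO 24H, and 183.5, 181.5 and 174.1 CPM in TMAO 48H. The control and 48H libraries did not overlap, and DLGAP5 rose by 0.14 ± 0.039 on the log2 scale (SE, adjusted p = 0.0378, edgeR). The call was lost in 5 of the 6 fits without 1 library (highest adjusted p 0.122). NUSAP1 was at 265.3, 265.5 and 261.7 CPM in CTRL, 254.4, 269.3 and 267.4 CPM in TMAO 24H, and 281.6, 295.7 and 279.9 CPM in TMAO 48H. These 48H values were all above the others, but its adjusted p was 0.0855 (edgeR). TPX2, PRC1, HMMR and ASPM, which nucleate, bundle or focus spindle microtubules, had log2 differences of 0.053 to 0.094 and did not pass the test.

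Among the cyclins and their kinase, CCNA2 stood at 222.4, 216.3 and 210.9 CPM in TMAO 48H, above each control. Its log2 fold change was 0.13 ± 0.039 (SE, adjusted p = 0.0483, edgeR), and the call was lost in 4 of the 6 fits without 1 library (highest adjusted p 0.156). Cyclin B1 (CCNB1) was at 252.4, 267.7 and 258.5 CPM in CTRL, 258.1, 261.9 and 252.1 CPM in TMAO 24H, and 276.8, 274.0 and 264.6 CPM in TMAO 48H. The 48H libraries lay above those of TMAO 24H but overlapped the controls, and the log2 difference from CTRL was 0.067 with a 95% interval from -0.018 to 0.15. CDK1 was at 182.1, 178.9 and 201.6 CPM in CTRL, 196.3, 193.3 and 185.8 CPM in TMAO 24H, and 207.6, 196.5 and 188.4 CPM in TMAO 48H. Here too the libraries overlapped, with a log2 difference at 48H of 0.075 and an interval from -0.037 to 0.19. CDC25C was at 26.31, 28.05 and 28.49 CPM in CTRL, 29.98, 28.63 and 29.29 CPM in TMAO 24H, and 32.8, 30.49 and 30.04 CPM in TMAO 48H. Its order followed the groups without overlap, but its adjusted p was 0.0683 at 48H (edgeR, log2 difference 0.17). CCNB2 and CDC25B had log2 differences of 0.11 and 0.027 at 48H.

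Of the 4 mitotic kinases none passed the test. PLK1, which acts from mitotic entry to cytokinesis, was at 184.4, 197.1 and 191.0 CPM in CTRL, 192.7, 190.6 and 195.1 CPM in TMAO 24H, and 191.3, 187.4 and 196.0 CPM in TMAO 48H. The 3 groups overlapped fully, and the 95% interval of the log2 difference at 48H ran from -0.078 to 0.089. AURKA, the kinase of the spindle poles, was at 129.0, 135.5 and 128.2 CPM in CTRL, 127.6, 137.8 and 133.0 CPM in TMAO 24H, and 149.0, 143.3 and 136.1 CPM in TMAO 48H. The 48H libraries were above the controls by a narrow margin, with a log2 difference of 0.13 ± 0.045 (SE) and an adjusted p of 0.0967 (edgeR). NEK2 had a log2 difference of 0.099, and AURKB, the kinase of the chromosomal passenger complex, one of -0.085.

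The checkpoint and kinetochore genes had no call at 48H. BUB1B, the checkpoint protein BUBR1 that inhibits CDC20, was at 186.5, 185.6 and 183.2 CPM in CTRL, 191.0, 191.8 and 187.6 CPM in TMAO 24H, and 175.7, 181.6 and 176.6 CPM in TMAO 48H. It was the only gene of the 44 whose 48H libraries all lay below the controls, by a log2 difference of -0.057 (adjusted p = 0.334, edgeR). BUB1, BUB3, MAD2L1 and TTK had differences from -0.0027 to 0.10. Of the 6 centromere and kinetochore genes, CENPA had a difference of -0.10, and CENPE, CENPF, NUF2, NDC80 and SPC25 had differences of 0.040 to 0.12.

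The remaining genes act at anaphase, in cytokinesis and on chromosomes. ANLN, which links the contractile ring to the membrane, was at 438.0, 428.1 and 422.8 CPM in CTRL, 438.2, 444.7 and 448.4 CPM in TMAO 24H, and 468.7, 472.9 and 466.5 CPM in TMAO 48H. Its 48H values were above all others, with a log2 fold change of 0.13 ± 0.037 (SE, adjusted p = 0.0464, edgeR), but it lost the call in all 6 fits that left out a library (adjusted p 0.0620 to 0.136). TOP2A was at 816.1, 817.6 and 774.9 CPM in CTRL, 809.3, 837.2 and 825.6 CPM in TMAO 24H, and 866.5, 927.9 and 886.3 CPM in TMAO 48H. TOP2A and ECT2, the activator of the contractile ring, lay just outside the threshold at adjusted p of 0.0521 and 0.0517 (edgeR), and both passed by DESeq2. MKI67 had a log2 difference of 0.030 at 48H, with a 95% interval from -0.17 to 0.23, and the value ran from -0.053 to 0.15 when 1 library was left out, below 0 without CTRL 3, TMAO 48H 2 or TMAO 48H 3. CDC20, UBE2C and PTTG1 (securin) had differences of -0.033, 0.11 and 0.11, and BIRC5 (survivin) of -0.037. The near copies of securin, PTTG2 and PTTG3P, held at most 2 counts in any library, and the antisense gene PRC1-AS1 held 28 to 100, which cannot be told apart from PRC1 without strand.

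**Figure D3:**
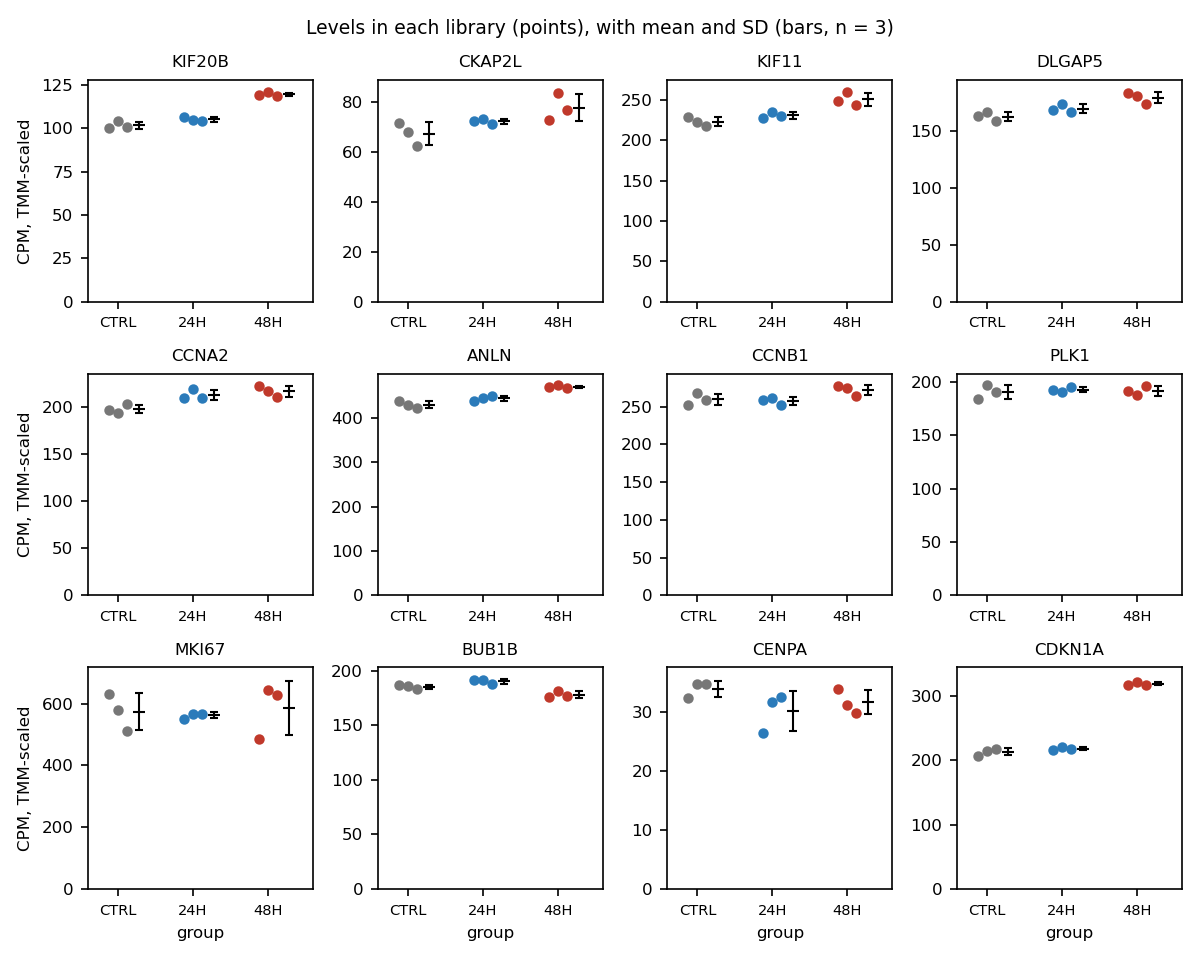
Level of 11 of the 44 genes and of the CDK inhibitor CDKN1A in each library (points), in TMM-scaled CPM, with the mean and SD of each group of 3 (bars). The first 6 panels show the genes called at 48H, whose rises were under 1.2-fold, and CDKN1A rose from 207.1 to 217.5 CPM in CTRL to 317.1 to 321.7 CPM at 48H.

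Between 24H and 48H, 1 gene of the 44 rose and none fell, where 3.77% of all tested genes rose and 3.77% fell. The gene was KIF20B (log2 fold change 0.19 ± 0.036, SE, adjusted p = 0.00687, edgeR). The median of the 44 was 0.062 and 37 differences were positive. Over all tested genes the median was 0.0040, with 7541 positive and 7199 negative values. KIF11 and NUSAP1 had log2 differences of 0.12 each with adjusted p of 0.0882 and 0.0985 (edgeR). The summed level of the 44 genes was 8674.7 ± 159.3 CPM in CTRL, 8813.1 ± 111.6 CPM in TMAO 24H and 9166.2 ± 192.2 CPM in TMAO 48H (SD, n = 3). Every 48H library was above every other, from 9003.9 to 9378.4 CPM. In the 48H libraries 31, 34 and 31 of the genes were above their mean over all 9 libraries, in the TMAO 24H libraries 11, 26 and 13 were, and in the CTRL libraries 15, 18 and 11 were. No such count over all tested genes is given, so these counts cannot be read as particular to the 44.

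**Figure D4:**
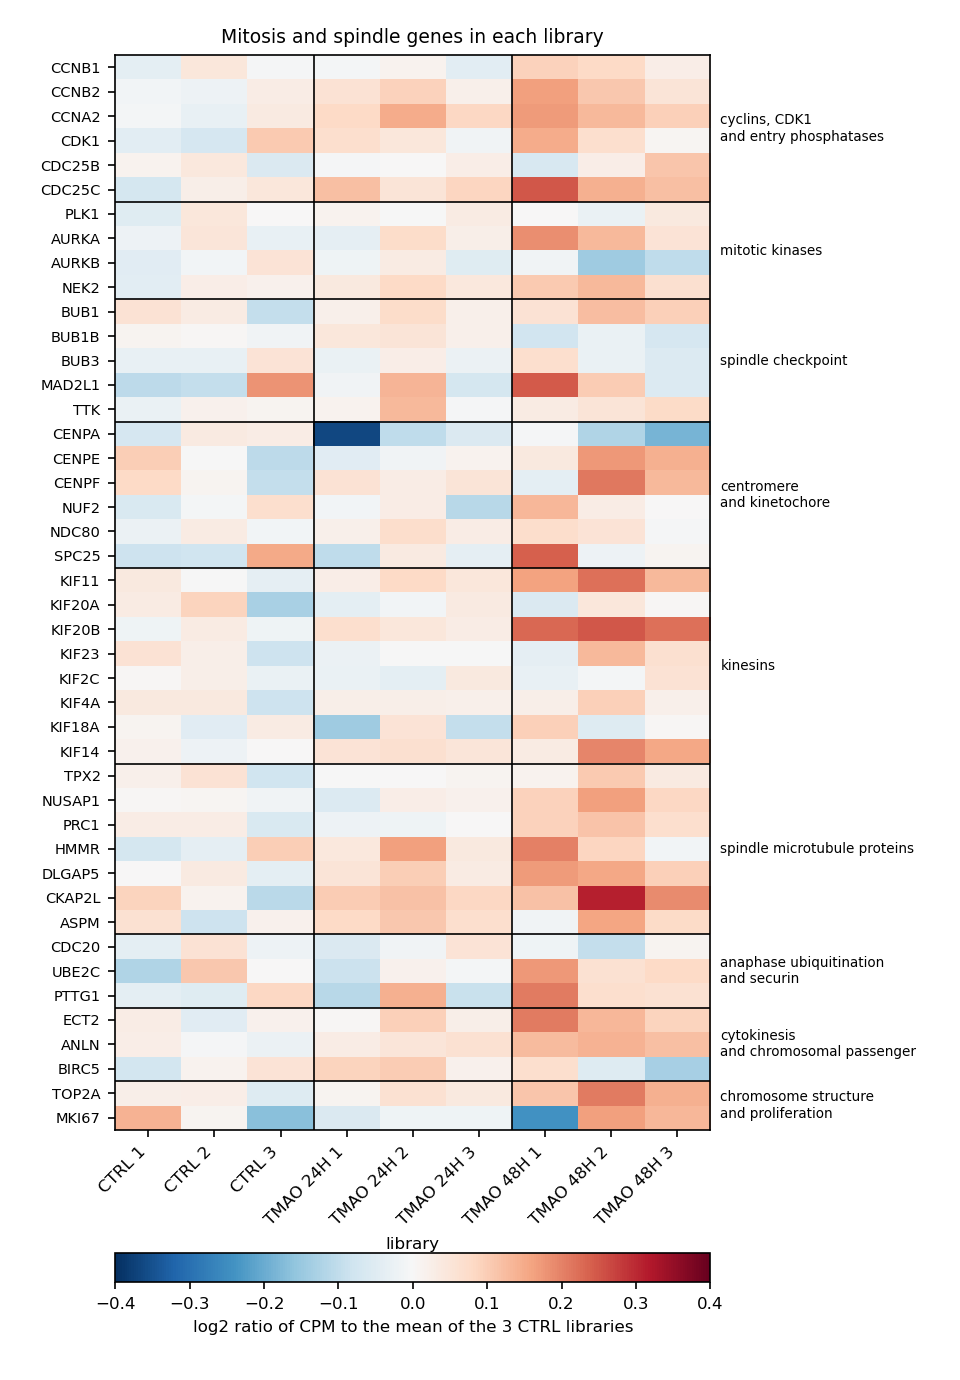
Log2 ratio of each gene's CPM to the mean of the 3 CTRL libraries, for the 44 genes (rows, by role) in the 9 libraries (columns). Ratios are mostly small, the 48H columns are more often above 0, and the row of KIF20B is high in all 3 of them.

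The 44 genes are AT-rich, and the size of their change at 48H followed their base composition. The median GC content of the longest transcript was 42.2% for the 44 genes (34.2% to 59.3%) and 48.7% for the 13835 tested genes with a value. Across the 44 genes the 48H log2 fold change and GC content had a Pearson r of -0.559 and a Spearman rho of -0.515, a slope of -0.065 per 10 points of GC. Across all tested genes r was -0.217 and the slope -0.067, nearly the same. Genes are not independent replicates and share their libraries, so no p is given. The slope of each library's log ratio on GC, per 10 points, was 0.013 to 0.043 in CTRL, -0.011 to 0.023 in TMAO 24H and -0.042 to -0.016 in TMAO 48H. All 6 genes called at 48H were among the 22 with the lower GC content (34.2% to 42.1%), which had a median log2 fold change of 0.103, and the other 22 (42.3% to 59.3%) had a median of 0.050. Among all 3359 tested genes in the lower range the median was 0.071 and 10.4% were called higher, and among the 7837 in the upper range the median was 0.00029 and 4.16% were called higher.

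When each library's GC trend was taken out, none of the 44 genes was called at 48H, where 3.54% of all tested genes were called higher and 3.90% lower. Before adjustment of p the corrected fit had 8 of the 44 higher and 1 lower, beside 10.7% and 11.2% of all tested genes. The median of the 44 fell to 0.031, with 32 positive and 12 negative values. Over all tested genes it was -0.00098, with 7334 positive and 7406 negative values. KIF20B had a corrected log2 difference of 0.14 (adjusted p = 0.0856, edgeR) and CKAP2L one of 0.14 (adjusted p = 0.170, edgeR). Between 24H and 48H the corrected fit no longer called KIF20B higher (log2 difference 0.12, adjusted p = 0.140, edgeR). It called BUB1B lower (log2 fold change -0.12, adjusted p = 0.0413, edgeR), where 3.64% of all tested genes were called lower. The correction also removes any change that AT-rich genes share as a class, so a library effect and such a change cannot be told apart.

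**Figure D5:**
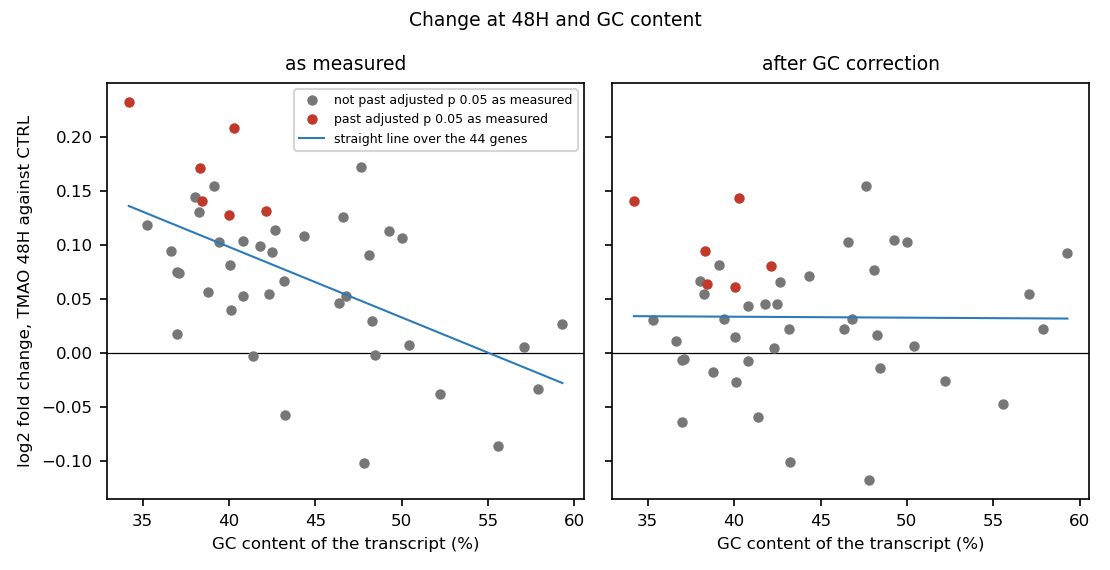
Log2 fold change at 48H of the 44 genes (points) against the GC content of the longest transcript, as measured (left) and after each library's GC trend was removed (right), with a straight line through the 44 points. The 6 genes called as measured (red) have GC contents of 34.2% to 42.1%, and the slope of -0.065 per 10 points on the left is close to 0 on the right.

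Other genes of the cell cycle were read from the same fit, in lists set by role. None of these lists had a call at 24H by edgeR. Among 7 CDK inhibitors, CDKN1A (p21), a p53 target that inhibits CDKs, rose at 48H. CDKN1A was at 207.1, 214.4 and 217.5 CPM in CTRL, 215.3, 220.1 and 217.7 CPM in TMAO 24H, and 317.1, 321.7 and 317.3 CPM in TMAO 48H. The 48H libraries lay far above the other 6, which overlapped. The log2 fold change was 0.58 ± 0.036 (SE, 1.496-fold, adjusted p = 2.51e-06, edgeR) against CTRL and 0.55 ± 0.036 against TMAO 24H (adjusted p = 2.23e-06, edgeR). It was 0.64 after GC correction and passed the test in each of 6 fits that left out a library. CDKN2C (p18) rose between 24H and 48H by 0.21 on the log2 scale (adjusted p = 0.0360, edgeR), and the other 5 inhibitors did not pass. With GC correction 2 of the 7 inhibitors were called higher at 48H against CTRL, where 3.54% of all tested genes were.

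Of 35 other kinetochore and passenger genes, 2 rose (5.71%) and 1 fell (2.86%) at 48H. Of all tested genes 5.14% rose and 5.29% fell. CASC5, the kinetochore scaffold KNL1, rose by 0.24 on the log2 scale (adjusted p = 0.00507, edgeR) and kept the call after GC correction (0.16, adjusted p = 0.0353). SGOL2 (shugoshin 2), which shields centromeric cohesin, rose by 0.17, and CENPT, an inner kinetochore protein, fell by 0.24, and neither kept the call after GC correction (adjusted p = 0.186 and 0.0968, edgeR). Of 21 other spindle genes, 3 rose (14.3%) and none fell: CKAP2 by 0.22, KIF2A by 0.16 and RACGAP1 by 0.15 on the log2 scale. CKAP2, a microtubule-binding protein, was at 267.6, 259.4 and 255.7 CPM in CTRL and 308.8, 304.5 and 297.1 CPM in TMAO 48H, and it kept its call after GC correction (adjusted p = 0.0433, edgeR), while KIF2A and RACGAP1 did not (adjusted p = 0.146 and 0.133). Of 19 condensin and cohesin genes, 5 rose (26.3%) and none fell at 48H, a larger share than the 13.6% of the 44 genes. Among them the cohesin loader NIPBL rose by 0.20, the cohesin subunits STAG2 by 0.18 and STAG1 by 0.17, and the condensin subunit SMC2 by 0.15. None of these 5 kept its call after GC correction.

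None of 17 genes of the anaphase-promoting complex and its partners was called at 48H by edgeR or by DESeq2. Unadjusted p values under 0.05 went to 3 lower (17.6%) and no higher genes (edgeR). Of all tested genes 12.6% were lower and 13.2% higher in this way. With GC correction 1 of the 17, ANAPC4, was called lower (log2 fold change -0.21, adjusted p = 0.0471, edgeR), as were 3.90% of all tested genes. Of 13 regulators of mitotic entry, ARPP19, an inhibitor of the phosphatase that opposes CDK1, rose by 0.15 and CCNF (cyclin F), a ubiquitin ligase subunit, fell by 0.18 on the log2 scale. CCNF was at 110.4, 114.3 and 112.9 CPM in CTRL and 95.02, 99.86 and 102.5 CPM in TMAO 48H, and it kept its call after GC correction (adjusted p = 0.0414, edgeR), which ARPP19 did not (adjusted p = 0.341). Of 21 tested regulators of mitotic transcription, 4 rose (19.0%) and none fell, where 5.14% of all tested genes rose and 5.29% fell. These 4 all encode parts of the DREAM complex or its pocket protein relatives. They were LIN52 by 0.24, RB1 by 0.16, RBL1 (p107) by 0.15 and RBL2 (p130) by 0.13 on the log2 scale, and none kept the call after GC correction. Of 28 S phase genes, MCM6, part of the replicative helicase, rose by 0.17 and UHRF1, which maintains DNA methylation, fell by 0.14, and neither kept the call after GC correction (adjusted p = 0.0697 and 0.0629, edgeR). The corrected fit called 1 other S phase gene higher, where 3.54% of all tested genes were called higher. The summed S phase level was 4981.8 ± 128.9 CPM in CTRL and 5016 ± 39.59 CPM in TMAO 48H (SD, n = 3), a difference within the spread of the libraries. None of 8 G1 cyclins and kinases was called at 48H by edgeR or by DESeq2, while unadjusted p values under 0.05 went to 1 higher and 2 lower genes (edgeR). Without the library TMAO 48H 3 the calls for CDKN1A, CASC5, SGOL2, CENPT, CKAP2, CCNF, LIN52, RB1, MCM6 and the 5 condensin and cohesin genes held, and those for KIF2A, RACGAP1, ARPP19, RBL1, RBL2 and UHRF1 did not. That fit also gained calls, with CDKN2C and CEP55 higher and KIF18B, TROAP and PKMYT1 lower. Of the 21 other spindle genes it thus called 2 higher and 2 lower. Of all 14740 tested genes it called 686 higher and 909 lower.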

How the data were processed

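Total RNA of 9 HMEC-1 samples (3 per group) was sequenced as paired-end reads. The authors ran the nf-core RNAseq pipeline (version 3.6; the submitters' processing notes name Trim Galore) and deposited estimated counts per gene, not normalised, of which 14.7% of values were not whole. The quantifier, genome build, annotation and strand setting are not given in the sources used here. For this re-analysis the expected counts were rounded, genes were filtered with filterByExpr, scaled by TMM and tested over all 14740 remaining genes and all 9 libraries with the quasi-likelihood test of edgeR 4.0.16 (R 4.3.3), with Benjamini-Hochberg adjustment. A gene is called at an adjusted p under 0.05, and calls that also reach 1.4-fold are counted separately. Intervals are at 95%, and SE is that of the log2 fold change. The 1.2-fold bound was chosen after the values were seen. Transcript GC and length were those of the longest GENCODE transcript of each gene (93.9% of tested genes, and 44 of 44 members), used as a lowess trend (span 0.3) of each library's log ratio and entered as an offset. Markers and pathway genes were counted from lists set by role.

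The 44 members, the lists and the tests were chosen with earlier results of these data known, so no set test was run and no p was adjusted over a list. Genes with values in every library were CCNB1, CDK1, PLK1, TOP2A, MKI67 and AURKA, up to 6 members per direction called in a comparison (or, with under 3 called, the 3 with the smallest unadjusted p), and the members of highest and lowest level. BUB1B, KIF14, ECT2, ANAPC4, CEP55, KIF18B, TROAP and PKMYT1 fall outside this rule and were chosen after their values were seen. From each other list up to 4 called genes were named. DESeq2 1.42.0, RLE scaling, no filter, fits of 2 groups, a replicate block, removal of ribosomal RNA genes, GC and length corrections and leaving out each library were tried as alternatives. The code was tested on simulated data. The libraries held 25205753 to 36927364 counts each, and the median within-group SD of the members was 0.0528 (log2).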

Additional observations from a re-analysis of the deposited data

Results flagged for a closer look

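KIF20B was singled out because its effect differed between the time-points by a direct test. The log2 fold change between TMAO 48H and TMAO 24H was 0.185 (adjusted p = 0.00687, edgeR), with all 3 libraries of TMAO 48H above all 3 of TMAO 24H. After GC correction the log2 difference was 0.12 (adjusted p = 0.140, edgeR).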

How the results depend on the processing

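The count of members called at 24H was 0 under every alternative tried. At 48H against CTRL it was 6. It was 2 with no expression filter, 1 in the fit of the 2 groups compared, 12 with the length correction, and 0 with the GC correction, with a straight GC line, with mean transcript GC, or at 1.4-fold. It ran from 1 to 5 when 1 library was left out. Those fits had fewer libraries, and the part of this in the lost calls was not tested. DESeq2 gave 8, RLE scaling 4, and the older quasi-likelihood fit and removal of ribosomal RNA genes 6 each. Of all tested genes DESeq2 called 5.06% higher at 48H and the GC correction 3.54%. For the other processing alternatives no such share is given here, so their counts cannot be read as particular to the members. Over 12 alternatives KIF20B kept a positive value of 0.13 to 0.23 and lost its call in 4 (adjusted p 1.61e-05 to 0.163). The other genes called at 48H lost their calls more often over the same 12. KIF11 lost it in 5, CKAP2L and DLGAP5 in 7 each, CCNA2 in 9 and ANLN in 10. At 48H against 24H the count was 1, KIF20B higher. It was 1, BUB1B lower, with each of the 3 GC corrections, 0 at 1.4-fold, and 1 in each fit without 1 library.

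The median log2 fold change of the members at 48H was 0.086 and moved to 0.0315 with the GC correction, 0.0336 with the straight line and 0.0235 with mean transcript GC (0.0711 to 0.0977 without 1 library). Between 24H and 48H it was 0.062 and moved to 0.0353, 0.0360 and 0.0282 in the same order (0.0437 to 0.0699 without 1 library). At 24H it was 0.0126 to 0.0393 without 1 library. The straight line, mean transcript GC and the block with GC correction were added after seeing the data. Apart from the GC corrections, where the trend removed is the construction itself, and the stricter fold, the cause of these moves was not tested.

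Same-numbered libraries of different groups had correlations of -0.27 to 0.065 in their deviations from the group mean, and differently numbered ones -0.15 to 0.22. Deviations from a group mean offset each other, so these correlations do not settle whether the numbers pair cultures. With the replicate block 2 members were called at 48H, and 0 with the block and GC correction, where the median was 0.0315. Between 24H and 48H the block with GC correction called 0, with a median of 0.0347. Of 1188 single-gene alternatives 1066 kept their side of the threshold, 111 lost it, 11 gained it and 0 reversed a call. The tally mixes results that were called in the main fit with results that were not, and only a called result could lose its call. At 24H none of the named genes was called, so the share that kept its side does not measure how stable the calls were. With 3 libraries per group an exact permutation test cannot go below p = 0.10.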
